A study of Homo sapiens with 12 samples.

Results

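The 10 cytosolic heat shock chaperone genes described here were HSPA1A, HSPA1B, HSPA8, HSPH1, HSP90AA1, HSP90AB1, DNAJB1, DNAJA1, BAG3 and HSPB1, out of 60675 gene IDs in the deposited table. They were chosen by name, with each Ensembl ID matched to its symbol, and all 10 had counts in every library. RNA sequencing was done on SW1783, a human astrocytoma cell line, treated for 24 h with vehicle (PBS with 2% DMSO) or with Aconitum carmichaeli Debeaux (ACD), an aconite, as a water extract. By the study's methods the extract stock was also made in PBS with 2% DMSO. Extract solution was added to wells of growth medium, so 2% was the level in the solution and not on the cells. Extract concentrations were 20 (low dose), 100 (medium dose) and 500 µg/mL (high dose), and each of the 4 groups had 3 libraries. All cells came from a single unmodified line, and no source says that the libraries of a group were separate cultures, so p-values measure the spread between these libraries, which may be technical. The name ACD rests on titles and treatment labels, because the protocol text supplied with the samples describes another herb, Poria cocos.

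Heat shock chaperones bind unfolded stretches of other proteins and keep them from clumping. The HSP70 proteins take hold of and release such clients in a cycle driven by ATP, J-domain proteins deliver the clients and start the cycle, and exchange factors reset it. HSP90 proteins receive part-folded clients such as kinases and hormone receptors from HSP70, while small heat shock proteins hold unfolded proteins without ATP. Many of these genes are switched on by heat shock factor 1 (HSF1), which binds arrays of the letters GAA in alternating orientation, called heat shock elements.

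Library totals lay between 18863863 and 24200576 counts. The astrocyte and glioma marker list had 8 of 10 genes above 3 counts in some library, with summed normalised counts of 144292 to 156347, but AQP4 was at 0 in every library and ALDH1L1 never exceeded 3 counts. VIM and CD44 carried nearly all of that sum. At the high dose VIM was higher (88412 to 108048 mean normalised counts) and CD44 lower (56908 to 43678). SLC1A3 (690.1 to 126) and NES (214 to 64.7) fell at that dose, with log2 fold changes of -2.45 and -1.72. SOX9 was lower (1434 to 1206), and AQP1 was not (12.2 to 14.4). The intestinal epithelial list summed to between 1.75 and 9.42 normalised counts, with 7 of 8 genes at or under 3 counts in every library. The neuron marker list summed to between 3589 and 3786 in vehicle and between 1800 and 1807 at the high dose, with all 6 genes above 3 counts. Its genes did not move together. TUBB3 (2212 to 707 mean normalised counts), SNAP25 (704 to 167) and NEFL (126 to 44.1) were lower at the high dose, while SYT1 (638 to 868) was higher. SYP (14.5 to 13.2) and RBFOX3 (3.13 to 3.61) had few counts and changed little. The microglia and immune list summed to between 3151 and 3317 in vehicle and between 3946 and 4231 at the high dose, with AIF1, ITGAM and CX3CR1 at or under 3 counts throughout. CD68 carried that higher sum (2864 to 3953), while PTPRC fell by 1.71 (275 to 84.8) and CSF1R by 1.14 (68.0 to 30.9) on the log2 scale, and the list median was -1.14. Counts on the mitochondrial rRNAs made up 0.932% ± 0.0251 (SD, n = 3) of vehicle libraries, 3.14% ± 0.164 at the low dose, 7.83% ± 0.199 with the medium dose and 5.93% ± 0.150 with the high dose, and the part of these shifts in the results was not tested. These lists describe a single cell line, not a mixture of cell types. In bulk samples such as these, a change in a part of the cells and a change in every cell cannot be told apart.

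The promoters of these genes are shown first because heat shock elements are what many of them share. RefSeq promoter windows on GRCh38.p14, reaching from 250 bases before a transcription start to 50 bases after it, were found for all 10 genes, in 15 windows. They were searched on both strands for 2-unit elements, GAANNTTC and TTCNNGAA, and for a 3-unit element, GAANNTTC followed after a 2-base gap by a further GAA, whose matches also hold a match of each 2-unit element. At least 1 of the 2-unit elements was in a window of 8 of the 10 genes, and 16.2% of the 27305 genes with a window held one. The 3-unit element was in windows of 4 of the 10 genes, HSPA8, HSP90AA1, HSP90AB1 and DNAJA1, against 0.608% of all genes. Counted by window, 9 of the 15 held a 2-unit element, against 13.5% of all windows. Because the 10 genes were chosen as regulated by HSF1, high shares follow from that choice and test nothing. No match was in the windows of HSPH1 and BAG3, which says only that these letters were not in those windows.

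The first 3 stretches are shown because they place the element of the stress-inducible genes relative to the start. They cover the 120 bases before the start of both stress-inducible HSP70 genes and of the stress-inducible HSP90 gene, 5′ to 3′ along the gene, with every 2-unit match in capitals.
HSPA1A (chr6:31815423-31815542, plus strand): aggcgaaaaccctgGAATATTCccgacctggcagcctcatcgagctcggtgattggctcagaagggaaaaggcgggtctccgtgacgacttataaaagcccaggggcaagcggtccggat
HSPA1B (chr6:31827618-31827737, plus strand): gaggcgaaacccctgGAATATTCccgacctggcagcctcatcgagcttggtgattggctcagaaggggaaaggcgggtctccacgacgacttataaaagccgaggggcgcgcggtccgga
HSP90AA1 (chr14:102087045-102087164, minus strand): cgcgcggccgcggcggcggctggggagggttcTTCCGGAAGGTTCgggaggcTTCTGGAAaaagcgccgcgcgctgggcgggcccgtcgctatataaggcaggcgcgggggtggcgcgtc

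HSPA1A and HSPA1B carried the same 8 letters, starting 106 and 105 bases before their starts. HSP90AA1 carried a 3-unit match 88 bases before its start and a further 2-unit match at 68 bases. Of the remaining genes, HSPA8 carried 3-unit matches 230 and 55 bases before its start, and HSP90AB1 165 and 112 bases before its own. The DNAJA1 match lay after the start, from base 4 of the transcript. Both HSPA8 stretches below lie wholly in annotated HSPA8 exon bases, as do 24 of the 30 DNAJA1 bases in DNAJA1 exons. The next stretches, of 30 bases each, show these 3-unit matches, with the same use of capitals.
HSPA8, first (chr11:123062346-123062375, minus strand): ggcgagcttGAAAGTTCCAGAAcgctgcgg
HSPA8, second (chr11:123062171-123062200, minus strand): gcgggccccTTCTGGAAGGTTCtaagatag
HSP90AB1, first (chr6:44247769-44247798, plus strand): gggagcaggTTCTGGAAGATTCatgggctc
HSP90AB1, second (chr6:44247822-44247851, plus strand): ctgagattgTTCTGGAAGCTTCtggattct
DNAJA1 (chr9:33025267-33025296, plus strand): cgccgggcgGAACTTTCCAGAAcgctcggt

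**Figure D1:**
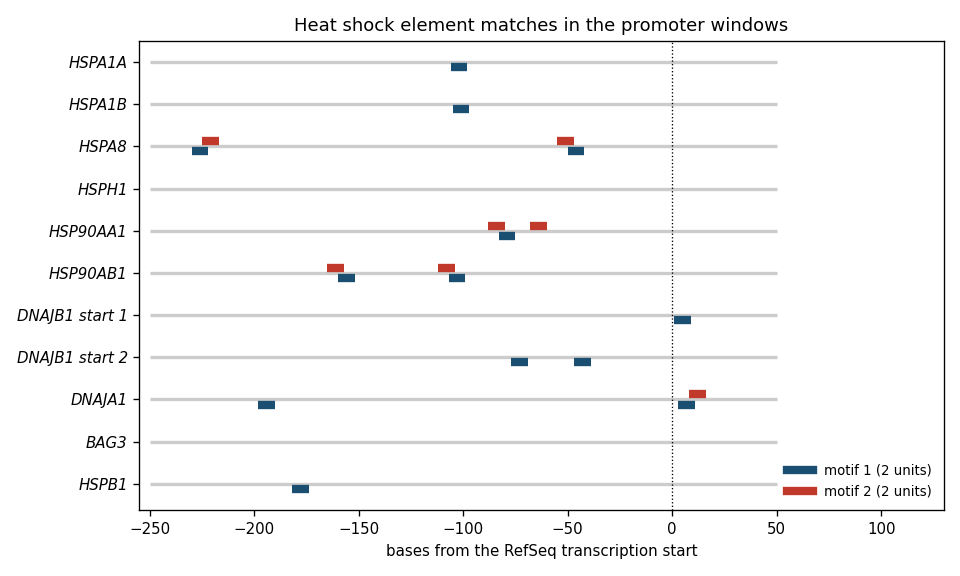
Positions of heat shock element matches in the promoter windows of the 10 genes; the horizontal axis is the distance in bases from the RefSeq transcription start (dotted line), each grey line is a window, blue bars are GAANNTTC matches (motif 1) and red bars are TTCNNGAA matches (motif 2). Windows without a match are drawn only for HSPH1 and BAG3, DNAJB1 has 2 windows with a match, and overlapping blue and red bars are the 3-unit matches of HSPA8, HSP90AA1, HSP90AB1 and DNAJA1.

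The main question was how the expression of these genes changed with the dose of extract. At the high dose all 10 genes fell against vehicle, by 0.22 (HSP90AB1) to 1.30 (HSPA1A) on the log2 scale. The fall was not even: HSPA1A, HSPA8, DNAJA1, HSPB1 and HSPA1B fell by 0.87 or more, while BAG3, HSPH1, HSP90AA1, DNAJB1 and HSP90AB1 fell by 0.41 or less. Genes were counted as differentially expressed (DEGs) when the two-sided Wald test of DESeq2 gave a Benjamini-Hochberg adjusted p under 0.05 and the fold change was over 1.5. By that rule 5 of the 10 were DEGs, all lower, where 9.57% of 19453 tested genes were DEGs in that direction. By adjusted p alone, which is what "rose" and "fell" mean here, all 10 fell, where 22.6% of tested genes did. In each of the 10 genes every high dose library lay below every vehicle library, as it did in 34.4% of the 15282 genes whose normalised counts averaged 10 or more. The median log2 fold change was -0.64 over the 10 genes and 0.00 over all genes tested.

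At the medium dose 0 of the 10 were DEGs, where 3.81% of 14082 tested genes were, and 8 fell by adjusted p alone, where 14.5% did. The largest fall was 0.39 on the log2 scale (DNAJA1), and the median over the 10 genes was -0.18. HSPA1B and HSPB1 did not pass the test. At the low dose 0 of the 10 were DEGs, where 0.118% of 9304 tested genes were, and 3 genes rose by adjusted p alone, HSPA1A, HSPA1B and HSP90AA1, where 2.05% of tested genes rose. Across the 4 groups, the likelihood ratio test of DESeq2 found a difference in 10 of 10, where 45.8% of tested genes differed.

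**Figure D2:**
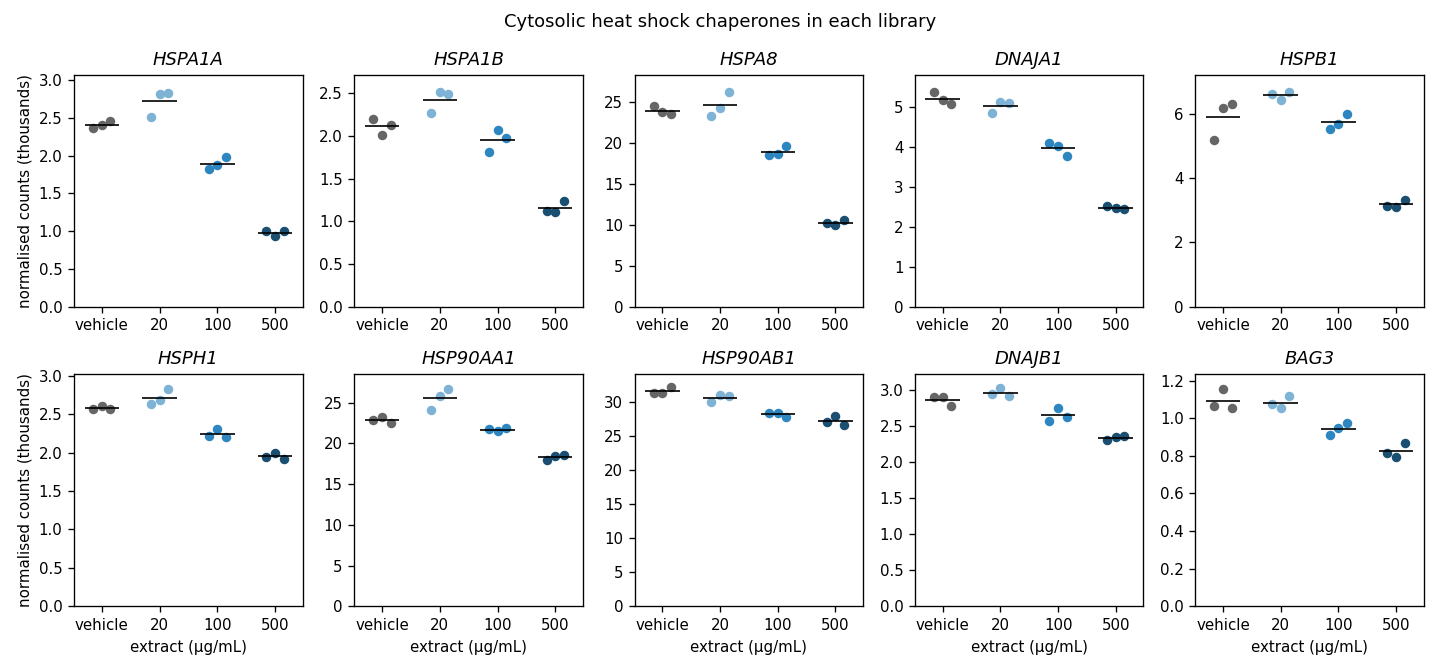
Normalised counts (vertical axes, from 0, in units of 1e3) of the 10 genes in each of 12 libraries, by group along the horizontal axis (vehicle, then 20, 100 and 500 µg/mL); points are libraries and lines are group means. The high dose libraries lie lowest in 9 panels with no overlap with any other group, and in the HSP90AB1 panel they overlap the medium dose.

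HSPA1A (ENSG00000204389; GRCh38 chromosome 6, 31815543 to 31817946, plus strand) and HSPA1B (ENSG00000204388; chromosome 6, 31827738 to 31830254, plus strand) encode the stress-inducible HSP70. HSPA1A had 2364, 2413 and 2459 normalised counts in the vehicle libraries, 2520.0, 2815 and 2833 at the low dose, 1829, 1871 and 1978 at the medium dose, and 1005, 942 and 999 at the high dose. The 4 groups did not overlap, with the low dose above vehicle and the other doses below it. Against vehicle, its level fell by 1.30 on the log2 scale (SE 0.0544) at the high dose, with an adjusted p of 5.24e-124 in DESeq2. It fell by 0.35 (SE 0.0512, adjusted p = 2.26e-10 in DESeq2) at the medium dose, whereas at the low dose it rose by 0.17 (SE 0.0501, adjusted p = 0.0211 in DESeq2).

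HSPA1B had 2199, 2013 and 2132 normalised counts in vehicle, 2266, 2516 and 2487 at the low dose, 1813, 2064 and 1974 at the medium dose, and 1115, 1112 and 1239 at the high dose. The medium dose overlapped vehicle, and the high dose lay below all other libraries. Its log2 fold change was -0.87 (SE 0.0605, adjusted p = 1.53e-45 in DESeq2) at the high dose, -0.11 (SE 0.0585, adjusted p = 0.131 in DESeq2) with the medium dose and 0.20 (SE 0.0579, adjusted p = 0.0265 in DESeq2) at the low dose. The medium dose value lay between -0.16 (without medium dose replicate 2) and -0.066 (without medium dose replicate 1) when single libraries were left out, and did not pass the test in any of these fits.

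These genes are hard to tell apart by sequence. Their coding sequences differed at 4 of 1923 bases (99.8% identity), and 72.4% of the 100-base stretches of the HSPA1A transcript, the length of a read, also occurred in HSPA1B. Reads from either gene were divided between them by the authors' counting, so the sum is the firmer value. In addition, 36.6% of the exon bases of HSPA1B overlap another gene on the same strand in the annotation used here, which has no row in the deposited table.

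The sum of HSPA1A and HSPA1B was 4527 ± 88.5 normalised counts in vehicle (SD, n = 3), 5146 ± 312 at the low dose, 3843 ± 174 with the medium dose and 2137 ± 93.3 with the high dose. No group overlapped vehicle. Its log2 fold change was -1.08 (SE 0.0470, adjusted p = 2.21e-115 in DESeq2) at the high dose, -0.24 (SE 0.0455, adjusted p = 2.96e-06 in DESeq2) with the medium dose and 0.18 (SE 0.0450, adjusted p = 0.00309 in DESeq2) at the low dose. Without low dose replicate 3 the low dose rise did not pass the test (log2 fold change 0.16, adjusted p = 0.0568 in DESeq2). HSPA1B made up 46.7% ± 1.37 of the sum in vehicle and 54.0% ± 1.39 at the high dose, without overlap, and a two-sided exact permutation test gave p = 0.1, the smallest that 3 libraries against 3 can give.

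HSPA8 (ENSG00000109971; chromosome 11, 123057489 to 123063230, minus strand) encodes HSC70, the HSP70 made by unstressed cells. It had 24483, 23736 and 23572 normalised counts in vehicle, 23316, 24329 and 26182 at the low dose, 18478, 18719 and 19689 at the medium dose, and 10242, 9953 and 10533 at the high dose. The low dose overlapped vehicle, and the medium and high doses lay below both and apart from each other. The log2 fold change was -1.22 (SE 0.0361, adjusted p = 3.22e-249 in DESeq2) at the high dose, -0.34 (SE 0.0357, adjusted p = 2.73e-19 in DESeq2) with the medium dose and 0.04 (SE 0.0356, adjusted p = 0.672 in DESeq2) at the low dose. Of its exon bases, 11.4% overlap a gene on the opposite strand that has no row in the deposited table, and how strand was used in counting is not stated in the sources used here.

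HSPH1 (ENSG00000120694; chromosome 13, 31134973 to 31162388, minus strand) encodes HSP110, an exchange factor and relative of HSP70. Its normalised counts lay between 2564 and 2612 in vehicle, 2634 and 2827 at the low dose, 2207 and 2308 with the medium dose and 1919 and 1997 at the high dose, with no overlap between groups. It fell by 0.40 (SE 0.0417, adjusted p = 7.62e-21 in DESeq2) on the log2 scale at the high dose and by 0.20 (SE 0.0412, adjusted p = 1.15e-05 in DESeq2) at the medium dose, and its log2 fold change at the low dose was 0.07 (adjusted p = 0.420 in DESeq2).

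DNAJA1 and DNAJB1 encode J-domain proteins that partner cytosolic HSP70, and they moved by different amounts. DNAJA1 (ENSG00000086061; chromosome 9, 33025273 to 33039907, plus strand) had 5372, 5158 and 5069 normalised counts in vehicle, 4827, 5122 and 5082 at the low dose, 4088, 4020.5 and 3766 at the medium dose, and 2509, 2464 and 2439 at the high dose. The low dose overlapped vehicle, and the higher doses did not overlap vehicle or each other. DNAJA1 had a log2 fold change of -1.07 (SE 0.0392, adjusted p = 2.72e-163 in DESeq2) at the high dose, -0.39 (SE 0.0379, adjusted p = 1.34e-23 in DESeq2) with the medium dose and -0.05 (SE 0.0374, adjusted p = 0.558 in DESeq2) at the low dose.

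DNAJB1 (ENSG00000132002; chromosome 19, 14514769 to 14560391, minus strand) encodes HSP40. Its counts lay between 2783 and 2901 in vehicle and between 2911 and 3026 at the low dose. They lay between 2571 and 2757 with the medium dose and between 2306 and 2360 at the high dose, with no overlap between groups. Its log2 fold change was -0.29 (SE 0.0394, adjusted p = 9.60e-13 in DESeq2) at the high dose, -0.11 (SE 0.0390, adjusted p = 0.0224 in DESeq2) with the medium dose and 0.05 (SE 0.0387, adjusted p = 0.621 in DESeq2) at the low dose. The medium dose fall passed the test in 17 of 22 settings (adjusted p up to 0.149), failing in a fit of only the groups compared and without vehicle replicate 1 or 2 or medium dose replicate 1 or 3. DNAJA1 had 1.82 ± 0.0373 times the counts of DNAJB1 in vehicle (SD, n = 3) and 1.06 ± 0.0277 times at the high dose. The ratio, which is free of any scaling between libraries, did not overlap between these groups (two-sided exact permutation p = 0.1, the smallest possible).

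BAG3 (ENSG00000151929; chromosome 10, 119651380 to 119677819, plus strand) encodes an HSP70 exchange factor that hands clients to autophagy. It had the fewest counts of the 10, between 1056 and 1156 in vehicle, 1052 and 1116 at the low dose, 909.9 and 975 with the medium dose and 794 and 866 at the high dose. Low dose and vehicle overlapped, and the higher doses lay below both. It fell by 0.41 (SE 0.0627, adjusted p = 6.25e-10 in DESeq2) on the log2 scale at the high dose and by 0.21 (SE 0.0620, adjusted p = 0.00421 in DESeq2) at the medium dose. The medium dose fall did not pass the test without vehicle replicate 2 (adjusted p = 0.0850 in DESeq2), the vehicle library with the highest BAG3 count.

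HSP90AA1 (ENSG00000080824; chromosome 14, 102080742 to 102139699, minus strand) encodes the stress-inducible HSP90. It had 22882, 23257 and 22478 normalised counts in vehicle, 24086, 25874 and 26667 at the low dose, 21702, 21479.8 and 21852 at the medium dose, and 17932, 18507 and 18629.9 at the high dose. The 4 groups did not overlap, with the low dose highest. Its log2 fold change was -0.32 (SE 0.0304, adjusted p = 2.25e-24 in DESeq2) at the high dose, -0.08 (SE 0.0303, adjusted p = 0.0383 in DESeq2) with the medium dose and 0.16 (SE 0.0302, adjusted p = 2.36e-05 in DESeq2) at the low dose. The medium dose fall passed the test in 15 of 22 settings (adjusted p up to 0.173), failing with edgeR, with no independent filtering, and without vehicle replicate 1 or 2 or any one of the medium dose libraries.

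HSP90AB1 (ENSG00000096384; chromosome 6, 44246166 to 44253888, plus strand) encodes the constitutive HSP90 and changed least at the high dose. It had 31437, 31402 and 32192 normalised counts in vehicle, 30096, 31032 and 30974 at the low dose, 28377, 28452 and 27903 at the medium dose, and 27073, 28005 and 26711 at the high dose. Every dosed library lay below vehicle, and the medium and high doses overlapped. The log2 fold change was -0.22 (SE 0.0222, adjusted p = 2.52e-21 in DESeq2) at the high dose, -0.17 (SE 0.0222, adjusted p = 2.75e-12 in DESeq2) with the medium dose and -0.05 (SE 0.0222, adjusted p = 0.329 in DESeq2) at the low dose.

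HSPB1 (ENSG00000106211; chromosome 7, 76302673 to 76304295, plus strand) encodes the small heat shock protein HSP27. It had 5181, 6192 and 6318 normalised counts in vehicle, 6626, 6456 and 6703 at the low dose, 5542, 5689 and 5999.6 at the medium dose, and 3151, 3104 and 3310.1 at the high dose. Vehicle replicate 1 lay well under the other vehicle libraries, the medium dose lay within the vehicle range, and the high dose lay below every other library. HSPB1 had a log2 fold change of -0.89 (SE 0.0541, adjusted p = 7.29e-59 in DESeq2) at the high dose, -0.04 (SE 0.0533, adjusted p = 0.651 in DESeq2) with the medium dose and 0.16 (SE 0.0531, adjusted p = 0.0640 in DESeq2) at the low dose. Leaving out single libraries moved the low dose value between 0.076 (without vehicle replicate 1) and 0.21 (without vehicle replicate 3, adjusted p = 0.00545 in DESeq2), and it also passed the test without vehicle replicate 2. Without vehicle replicate 1 the medium dose value was -0.12 and passed the test (adjusted p = 0.0123 in DESeq2).

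**Figure D3:**
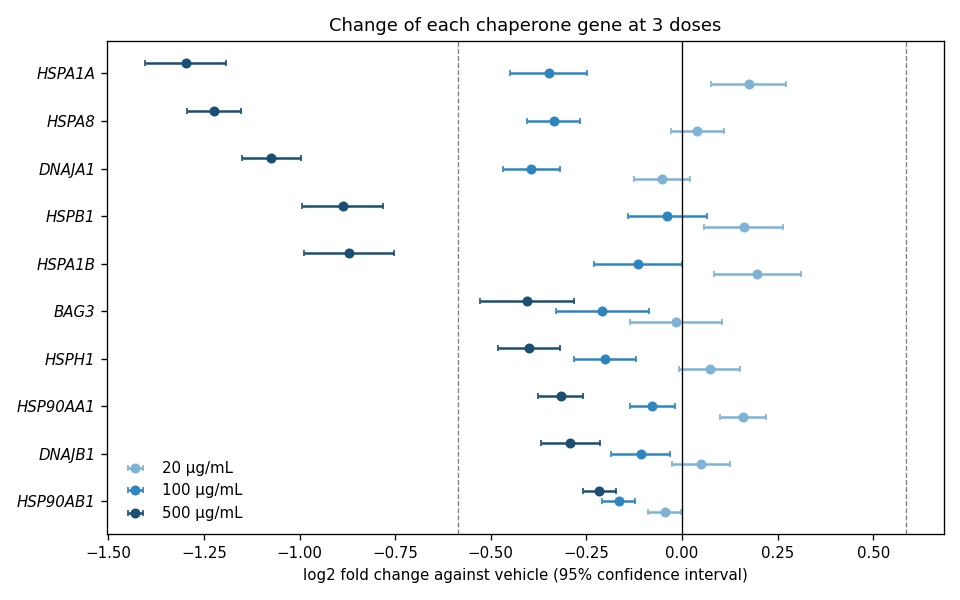
Log2 fold change against vehicle (horizontal axis) of each gene at 20, 100 and 500 µg/mL, with 95% confidence intervals from DESeq2; the solid line marks no change and dashed lines mark a fold of 1.5 either way. At 500 µg/mL, 5 genes lie beyond the left dashed line and the other 5 between it and 0.

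In the order of the high dose falls, the widest gap between neighbours was 0.47 on the log2 scale, between HSPA1B and BAG3, whose 95% confidence intervals did not overlap. Within the group that fell most, the intervals of HSPA1A and HSPA8 overlapped, as did those of HSPB1 and HSPA1B. Below the gap, every gene's interval overlapped that of its neighbour.

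Between neighbouring doses the genes also differed. From the medium to the high dose 5 of the 10 were DEGs, all lower, where 5.61% of 16467 tested genes were, and 9 fell by adjusted p alone, where 19.8% did. They were the same genes that were DEGs against vehicle, with log2 differences of -0.95 for HSPA1A, -0.89 for HSPA8, -0.85 for HSPB1, -0.76 for HSPA1B and -0.68 for DNAJA1. HSP90AB1 had a log2 difference of -0.05 (95% confidence interval -0.09 to -0.01, adjusted p = 0.0546 in DESeq2). From the low to the medium dose 0 of the 10 were DEGs, where 1.94% of 14082 tested genes were, while all 10 fell by adjusted p alone, where 9.58% did. These comparisons share the medium dose libraries.

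HSPA1A fell by 0.52 on the log2 scale (SE 0.0510, adjusted p = 1.08e-22 in DESeq2) from the low to the medium dose, and HSP90AA1 by 0.24 (SE 0.0303, adjusted p = 2.85e-13 in DESeq2). Both were above vehicle at the low dose and below it at the medium dose in every library. So were HSPH1 and DNAJB1, whose low dose changes did not pass the test. The low dose rise of HSP90AA1 passed the test in all 22 settings tried, with adjusted p up to 0.0118 in DESeq2 or edgeR. That of HSPA1A passed in 16 of 22 (adjusted p up to 0.226), failing with library totals as size factors, with no independent filtering, and without vehicle replicate 1 or 2 or low dose replicate 2 or 3. That of HSPA1B also passed in 16 of 22 (adjusted p up to 0.258), failing with those same changes of scaling and filtering and without vehicle replicate 2 or 3 or low dose replicate 2 or 3.

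The 10 genes together took 0.497% ± 0.00252 of all counts in vehicle (SD, n = 3), 0.502% ± 0.0212 at the low dose, 0.404% ± 0.00475 with the medium dose and 0.314% ± 0.00362 with the high dose. The low dose overlapped vehicle (two-sided exact permutation p = 0.7), and the medium and high doses lay below it (p = 0.1 in each exact permutation test, the smallest possible). With mitochondrially encoded counts left out of the total, the share was 0.524% in vehicle and 0.346% at the high dose. HSP90AB1 (31677 mean normalised counts in vehicle), HSPA8 (23930) and HSP90AA1 (22872) weigh most in either share, the next gene being HSPB1 (5897).

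Ratios between members of different families and of the same family moved too. HSPA8 had 0.756 ± 0.0233 times the counts of HSP90AB1 in vehicle and 0.376 ± 0.0195 times at the high dose (SD, n = 3 each). HSP90AA1 had 0.722 ± 0.0217 times the counts of HSP90AB1 in vehicle, 0.832 ± 0.0304 at the low dose, 0.768 ± 0.0143 with the medium dose and 0.674 ± 0.0207 with the high dose. The HSP90 ratio was above vehicle in every low and medium dose library and below it in every high dose library (two-sided exact permutation p = 0.1 for each dose, the smallest possible). At the high dose the ranges nearly met, at 0.661 to 0.697 against 0.698 to 0.741 in vehicle. HSP90AA1 and HSP90AB1 share 76.0% of aligned coding bases, and pseudogenes named for any of the 10 genes took at most 0.128% of the counts of gene and pseudogenes together.

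**Figure D4:**
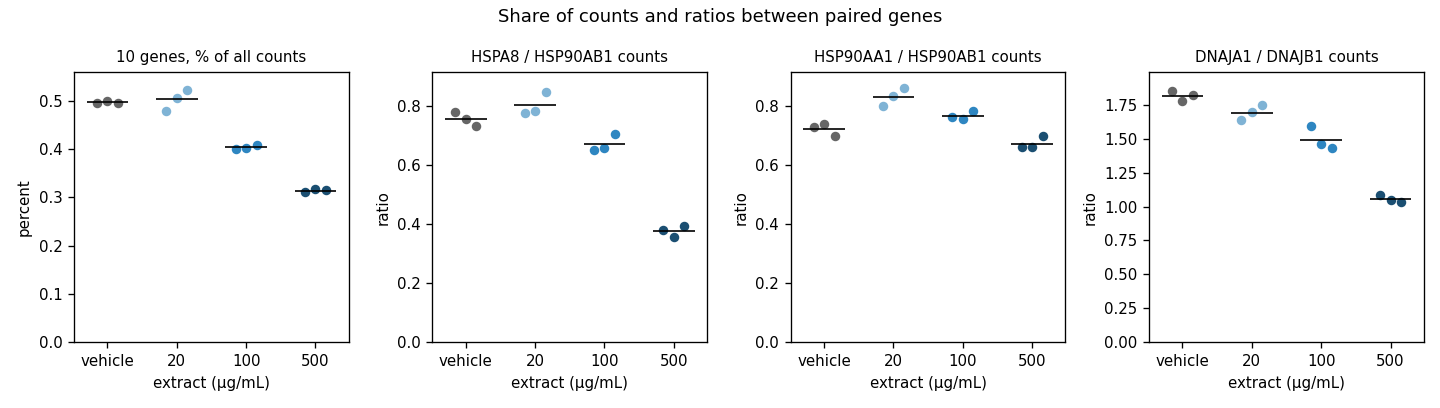
Percent of all counts on the 10 genes, and ratios of counts between gene pairs, in each of 12 libraries (vertical axes, from 0) by group (horizontal axis); points are libraries and lines group means. The share falls from 0.497% to 0.314%, and the DNAJA1 to DNAJB1 ratio from 1.82 to 1.06, between vehicle and 500 µg/mL.

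Levels were compared between genes as normalised counts per kilobase of exon. In vehicle the order was HSP90AB1 (10630 ± 150), HSPA8 (4935 ± 100.2), HSP90AA1 (4487 ± 76.5), HSPB1 (3634 ± 384), DNAJA1 (1949 ± 58.2), HSPA1A (1003 ± 19.8), HSPA1B (840.3 ± 37.4), BAG3 (399 ± 20.2), DNAJB1 (349 ± 8.28) and HSPH1 (308 ± 3.24), each as mean and SD over 3 libraries. At the high dose HSP90AA1 (3601 ± 73.1) stood above HSPA8 (2112 ± 59.7), and HSPA1B (459 ± 28.9) above HSPA1A (409 ± 14.3). The order depends on the length used: with the longest coding transcript, HSPB1 stood above HSP90AA1 in vehicle, and DNAJB1 and HSPH1 above BAG3.

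Other listed genes of the cytosolic chaperone and heat shock system moved in both directions. The lists include heat-inducible genes whose products act elsewhere, namely SERPINH1 in the ER and HSPD1, HSPE1 and MRPL18 in mitochondria. Of 85 genes listed, 82 were tested at the high dose, 7 were DEGs higher and 5 lower, where 18.2% of tested genes were DEGs in either direction. By adjusted p alone 17 rose and 29 fell, where 23.9% and 22.6% of tested genes did. Their median log2 fold change was -0.03. At the medium dose 1 was a DEG, higher, where 3.81% of tested genes were DEGs in either direction. By adjusted p alone 8 were higher and 17 lower at that dose, where 15.1% and 14.5% of tested genes were. At the low dose 0 were DEGs and 1 rose, where 0.118% and 2.05% of tested genes did.

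Among the other HSP70 and HSP110 genes, 3 of 8 fell at the high dose and 0 rose. Beside this and each family count below, 23.9% of all tested genes rose and 22.6% fell at that dose. Beside each count of DEGs below, 1684 of 19453 tested genes were DEGs higher and 1862 were DEGs lower. HSPA2, an HSP70 known from the testis, had 391, 442 and 378 normalised counts in vehicle and 134, 124 and 149 at the high dose, a log2 fold change of -1.57 (SE 0.125, adjusted p = 4.34e-35 in DESeq2). HSPA14, a ribosome-linked HSP70, fell by 0.28. HSPA6, a strictly heat-inducible HSP70 named here after its values were seen, lay between 1.89 and 9.01 normalised counts in all 12 libraries, so a change in it could hardly be detected at this depth.

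Of 12 other J-domain co-chaperones, 4 rose and 3 fell at the high dose, where 23.9% and 22.6% of tested genes did. DNAJA4 rose by 0.85 (adjusted p = 2.11e-05 in DESeq2) and DNAJB4 fell by 0.66 (adjusted p = 1.02e-34 in DESeq2). Of 9 genes for exchange factors and client handling, 2 rose, BAG1 by 0.39 and BAG6 by 0.22 on the log2 scale, and 1 fell. Of 17 HSP90 co-chaperones, 5 rose and 7 fell with 0 DEGs, CACYBP having a log2 fold change of -0.43 and TTC4 of 0.35.

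Of 8 other small heat shock protein genes, 6 were tested and 2 fell, both DEGs. HSPB8, the partner of BAG3 in client handling, fell by 1.04 (adjusted p = 1.10e-23 in DESeq2), with 472 to 532 normalised counts in vehicle and 222 to 264 at the high dose. The other, HSPB3, had a mean normalised count of 8.92 and is named after its values were seen. Of 14 chaperonin and prefoldin genes, which fold actin and tubulin, 7 fell and 1 rose. CCT2 fell by 0.34, and PFDN2 rose by 1.03 (adjusted p = 5.13e-52 in DESeq2).

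HSF1, the factor that binds heat shock elements, rose at the high dose, where all 10 genes fell. It had 1336, 1331 and 1401 normalised counts in vehicle, 1463, 1436 and 1491 at the low dose, 1709, 1619 and 1694 with the medium dose and 2048, 2190.2 and 2288 at the high dose. The groups did not overlap and stood in the order of dose. The log2 fold change was 0.68 (SE 0.0506, adjusted p = 2.42e-40 in DESeq2) at the high dose, 0.30 (SE 0.0516, adjusted p = 6.44e-08 in DESeq2) with the medium dose and 0.11 (SE 0.0522, adjusted p = 0.302 in DESeq2) at the low dose. HSF2, a related factor, had a log2 fold change of 0.18 at the high dose (adjusted p = 0.0643 in DESeq2), and HSBP1, which binds and restrains HSF1, fell by 0.21.

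Of 10 other heat-inducible genes listed as HSF1 targets, 3 rose and 5 fell at the high dose, with 2 DEGs higher and 1 lower. DEDD2, a death effector domain gene, had 223 to 240.4 normalised counts in vehicle and 550.5 to 643 at the high dose, a rise of 1.39 on the log2 scale (adjusted p = 7.09e-40 in DESeq2). ZFAND2A, an arsenite-inducible proteasome-linked gene, rose by 1.07 (adjusted p = 1.14e-25 in DESeq2), with 258 to 306 counts in vehicle and 593 to 612 at the high dose. The DEG that fell was SERPINH1, a collagen chaperone of the endoplasmic reticulum (ER), with 10145 to 10555 counts in vehicle and 6492 to 6777 at the high dose, a fall of 0.63 (adjusted p = 1.47e-116 in DESeq2); it is named after its values were seen.

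Chaperones of other compartments are given for contrast. All 18 chaperone genes on the ER list, which does not hold SERPINH1, rose at the high dose, where 23.9% of tested genes rose. Their median log2 fold change was 0.50, and 7 were DEGs, where 1684 of 19453 tested genes were DEGs higher. HSPA5, the HSP70 of the ER, had 74724, 73372 and 74842 normalised counts in vehicle and 269728, 272080.2 and 257391 at the high dose, a rise of 1.84 on the log2 scale (SE 0.0221). DNAJB9, an ER J-domain protein, rose by 1.95. Of 12 mitochondrial chaperone and protease genes 7 rose and 1 fell, with a median of 0.21, LONP1 having risen by 1.15 and GRPEL2 by 1.13. HSPD1 and HSPE1 stand on both the mitochondrial list and the list of heat-inducible genes.

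**Figure D5:**
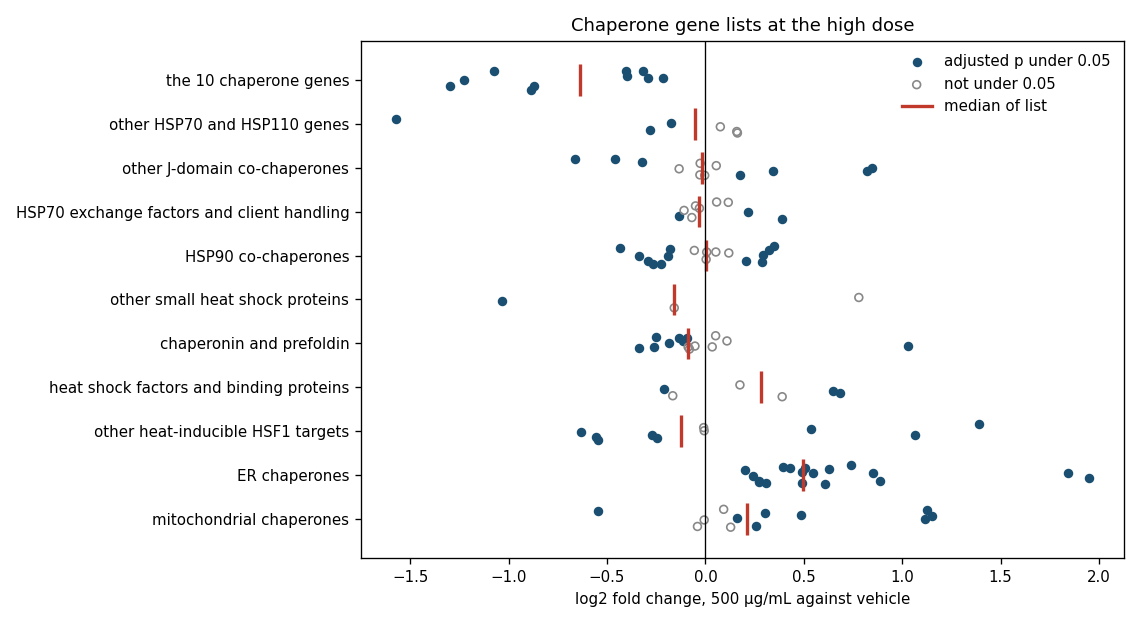
Log2 fold change at 500 µg/mL against vehicle (horizontal axis) of genes in each list (vertical axis; SERPINH1, of the ER, is among the heat-inducible targets) whose normalised counts averaged 10 or more; filled points had an adjusted p under 0.05 in DESeq2, open points did not, red lines are list medians and vertical scatter has no meaning. All 10 chaperone genes lie left of 0 with a median of -0.64, and all 18 genes of the ER list lie right of it with a median of 0.50.

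The genes whose pattern over the 9 dosed libraries was most like that of HSPA8 were AURKA, TUBA4A and COL11A1, among 10717 protein-coding candidates whose normalised counts averaged 100 or more. Likeness was the root mean square difference of log2(normalised count + 1), each gene centred on its vehicle mean, and it was 0.0555 for AURKA, 0.0708 for TUBA4A and 0.0753 for COL11A1. The nearest of the other chaperone genes were HSPA1A (0.0931) and DNAJA1 (0.126). For the sum of HSPA1A and HSPA1B the nearest genes were TNS2 (0.0712), KLHL4 (0.0875) and SETMAR (0.0970).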

How the data were processed

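RNA was sequenced from 12 SW1783 libraries, 3 in each of 4 groups, and groups were taken from the sample labels. The authors prepared strand-specific libraries, sequenced paired ends, ran FastQC 0.11.9 and Trim Galore, aligned with STAR and counted with RSEM 1.3.3 on GRCh38; versions of Trim Galore and STAR differ between the submitters' processing notes (0.6.5 and 2.7.3a) and the methods. The deposited values are RSEM expected counts, which divide shared reads among genes; 8.75% were not whole, and they were rounded. Columns were matched to libraries by a code in each description, and 0 were left over.

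Symbols and positions came from GENCODE v44, a later annotation than the authors'. Two-sided Wald and likelihood ratio tests were fitted on all genes and 12 libraries with DESeq2 1.42.0 in R 4.3.3, with group as the sole term and independent filtering at 0.05; edgeR 4.0.16 was an alternative. Scripts were tested on simulated data. Counts were divided by the size factors of DESeq2 to give normalised counts. List medians used genes with a mean of at least 10. Beyond the 10 genes, HSF1 and HSF2, the text names the 3 nearest patterns and up to 2 genes per list. The latter had the largest high dose changes among those with an adjusted p under 0.05 and a mean of at least 100. The 10 genes and all lists were chosen with earlier results of these data known. Replicate pairs differed by more than counting noise. Alternatives were other scalings, filters and thresholds, edgeR, fits of only the groups compared, a replicate block and leaving out each library.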

Additional observations from a re-analysis of the deposited data

Results flagged for a closer look

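HSPA1A and HSP90AA1 moved in opposite directions at neighbouring doses: every low dose library lay above every vehicle library and every medium dose library below. HSPH1 and DNAJB1 lay in the same order, without passing the low dose test (adjusted p = 0.420 and 0.621 in DESeq2). At the low dose 6 of the 10 genes lay wholly above vehicle, as did 11.3% of genes whose normalised counts averaged 10 or more. At the medium dose 8 lay wholly below it, as did 24.2%. The medium dose fall of HSP90AA1 passed the test in 15 of 22 settings. The difference between the medium and the low dose was tested itself with DESeq2. HSPA1A and HSP90AA1 were picked from these same libraries, so the test gives no separate support. All 10 genes fell from the low to the medium dose by adjusted p alone. HSPA1A differed by -0.52 on the log2 scale (adjusted p = 1.08e-22) and HSP90AA1 by -0.24 (adjusted p = 2.85e-13). The 2 contrasts share the vehicle libraries.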

How the results depend on the processing

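The 5 DEGs among the 10 genes at the high dose stayed 5 in every alternative that kept a fold threshold. Without a fold threshold the count was 10, 8 and 3 for high, medium and low dose against vehicle, 9 from the medium to the high dose and 10 from the low to the medium dose; for the other 85 listed genes they gave 46, 25 and 1 in that order; and the sum of HSPA1A and HSPA1B passed at the medium dose (-0.24) and the low dose (0.18). A test against the fold threshold itself gave 3 from the medium to the high dose, and 5 and 0 for the other genes at the high and medium doses. For those genes at the medium dose, edgeR gave 2 and library totals as size factors 0; library totals also gave 1 of the 10 genes from the low to the medium dose. Library totals shifted the median of all genes by -0.11 on the log2 scale at both higher doses.

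Leaving out single libraries kept 5 to 5 of the 10 genes at the high dose, 5 to 5 from the medium to the high dose, 0 to 0 in each other comparison and 10 to 10 across groups; the other listed genes gave 11 to 12, 1 to 1 and 0 to 0. By adjusted p alone, the count of falls at the medium dose ranged from 5 (without vehicle replicate 2) to 10 (library totals), and of rises at the low dose from 1 (library totals, no independent filtering, or without low dose replicate 2 or 3) to 4. Values near 0 turned: BAG3 at the low dose (range -0.041 to 0.028) to 0.028 without vehicle replicate 2 and 0.0020 without low dose replicate 2, HSPB1 at the medium dose (range -0.12 to 0.013) to 0.013 without vehicle replicate 3, and HSPA8 at the low dose (range -0.0071 to 0.078) to -0.0071 without low dose replicate 3. The sum of HSPA1A and HSPA1B ranged from -1.12 to -1.05, -0.26 to -0.20 and 0.16 to 0.23 at the high, medium and low doses. The share of counts on the 10 genes changed by -0.185 to -0.181, -0.0960 to -0.0916 and -0.00398 to 0.0169 percentage points, the lowest at the low dose being without low dose replicate 3. Over non-mitochondrial counts it changed by -0.178 at the high and -0.0721 at the medium dose. The cause was not tested.

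Whether equal replicate numbers paired the libraries was not settled. Correlations of deviations were low, with 1 of 18 over 0.1 (range -0.041 to 0.104), but 8 of 12 libraries correlated best with their own number. With the replicate block the 10 genes again held 5 DEGs at the high dose and 0 at either lower dose, with 12 of the other listed genes at the high dose. By adjusted p alone the block added HSPB1 to the rises at the low dose (log2 fold change 0.16, adjusted p = 0.0170 in DESeq2), making 4 against 3 without it.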
